A study of Homo sapiens with 6 samples.

Results

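The genomic binding of HDAC1 in HepG2 cells, a long-established line from a human hepatocellular carcinoma, was described from the 2 peak lists of the HDAC1 libraries. Members were all intervals of those lists on every sequence, 5979 in replicate 1 and 4802 in replicate 2, which made 10781 of the 27419 peaks of the series. The series mapped 3 targets by CUT&Tag, in which an antibody on permeable cells tethers a transposase that inserts sequencing adapters beside its target: HDAC1, ENO1 (enolase, an enzyme of glycolysis) and H4K12la (lactylated lysine on the tail of histone H4). Each target had 2 replicate libraries, all from the same line with no treatment named in the labels. Whether the replicates are separate cultures is not said in the labels, and their spread may be technical only. No library without a specific antibody was analysed here. Only peak lists were used, so depth is unknown, and signal too weak to be called cannot be seen. The fold enrichment printed throughout is the authors' own value for a peak, its signal over the peak caller's background, and it is used to rank peaks within a list.

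HDAC1 is a class I histone deacetylase that removes acetyl groups from lysines of histone tails. It has no DNA-binding domain of its own and works mostly inside the Sin3, NuRD, CoREST and MiDAC complexes, which transcription factors and chromatin readers bring to genes. Histone acetylation marks active promoters and enhancers, and deacetylases are found at active promoters as well as at silenced genes.

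Many of the 30 protein-coding genes with the most enriched ends had a peak within 1 kb of a start in both replicates. The 250 bases upstream of the start of 6 of these genes are shown, from RefSeq on GRCh38.p14 and in the direction of transcription. The 6 are not simply the strongest. TMEM216, OR2T1, CCDC200 and RAP2A rank above KDM4A by the lower fold and are not printed. Their regions did not overlap the 250 bases upstream of the annotated start. The printed promoters show short elements, not all of which lie under the HDAC1 peak. They belong to KDM4A, a histone demethylase (chr1:43649899-43650148, plus strand); PWWP2A, a chromatin reader (chr5:160119451-160119700, minus strand); TNRC6B, a partner of Argonaute in microRNA silencing (chr22:40044584-40044833, plus strand); FARP2, an exchange factor for small GTPases (chr2:241356035-241356284, plus strand); NT5C3A, a pyrimidine nucleotidase (chr7:33062777-33063026, minus strand); and FAM168A (chr11:73598113-73598362, minus strand). Capitals mark matches to the motifs searched on both strands, with ATTGG and CCGCCC the reverse of CCAAT and GGGCGG.
KDM4A: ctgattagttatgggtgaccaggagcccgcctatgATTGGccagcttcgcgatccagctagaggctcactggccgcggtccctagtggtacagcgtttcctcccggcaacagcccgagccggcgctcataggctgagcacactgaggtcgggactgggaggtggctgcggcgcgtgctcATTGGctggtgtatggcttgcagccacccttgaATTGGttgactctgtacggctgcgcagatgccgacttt
PWWP2A: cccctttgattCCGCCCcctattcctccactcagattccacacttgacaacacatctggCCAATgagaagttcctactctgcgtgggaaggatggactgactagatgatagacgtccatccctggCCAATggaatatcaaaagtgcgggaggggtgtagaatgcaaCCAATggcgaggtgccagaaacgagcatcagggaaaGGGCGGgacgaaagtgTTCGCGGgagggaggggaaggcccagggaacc
TNRC6B: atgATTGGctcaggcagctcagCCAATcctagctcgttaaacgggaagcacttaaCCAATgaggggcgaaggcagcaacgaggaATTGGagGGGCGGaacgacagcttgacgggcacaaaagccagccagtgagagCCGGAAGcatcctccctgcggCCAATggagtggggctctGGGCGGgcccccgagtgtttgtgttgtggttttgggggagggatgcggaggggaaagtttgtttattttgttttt
FARP2: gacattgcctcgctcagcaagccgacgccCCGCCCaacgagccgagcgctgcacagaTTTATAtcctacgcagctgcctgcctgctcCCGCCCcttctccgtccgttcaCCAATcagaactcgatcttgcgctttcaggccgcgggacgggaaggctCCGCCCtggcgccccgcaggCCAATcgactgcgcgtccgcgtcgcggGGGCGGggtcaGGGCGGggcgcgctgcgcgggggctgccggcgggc
NT5C3A: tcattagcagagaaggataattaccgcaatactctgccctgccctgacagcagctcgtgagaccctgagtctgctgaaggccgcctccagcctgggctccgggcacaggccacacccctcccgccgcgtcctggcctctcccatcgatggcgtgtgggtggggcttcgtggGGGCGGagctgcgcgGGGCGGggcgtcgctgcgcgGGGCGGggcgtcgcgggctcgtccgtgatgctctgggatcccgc
FAM168A: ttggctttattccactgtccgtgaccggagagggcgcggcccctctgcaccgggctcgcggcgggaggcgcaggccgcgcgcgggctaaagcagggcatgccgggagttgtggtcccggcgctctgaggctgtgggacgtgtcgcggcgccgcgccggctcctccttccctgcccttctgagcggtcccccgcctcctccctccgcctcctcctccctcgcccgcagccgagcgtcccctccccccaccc

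The CCAAT box, the element bound by the factor NF-Y, was read 3 times upstream of KDM4A, 3 times upstream of PWWP2A and 5 times upstream of TNRC6B. FARP2 held 2 CCAAT boxes and 5 GC boxes (GGGCGG, the element of the SP1 family), beside a TATAAA match far upstream of the start, and NT5C3A held 3 GC boxes and no CCAAT box. PWWP2A and TNRC6B each held 2 GC boxes as well, PWWP2A also a TTCGCGG (E2F) and TNRC6B a CCGGAAG (ETS). FAM168A held no match to any motif searched, which says only that these letters are not in this window. The promoters of ZNF131 and RALY were also taken and are not printed. Both held GC boxes and no CCAAT box. Fold enrichment at these promoters was 9.79 and 8.73 at KDM4A in replicates 1 and 2. It was 8.5 and 8.89 at PWWP2A, and 10 and 8.46 at TNRC6B. The peak at TNRC6B also lay within 1 kb of the end of FAM83F, so the region cannot be given to either gene alone. FARP2 had 8.57 and 9.76, NT5C3A 9.71 and 9.72, and FAM168A 8.72 and 9.16. The summits lay upstream of the printed start in both replicates, with positions from the start of -27 in both at KDM4A and of -470 and -502 at FARP2.

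HDAC1 occupied promoters more often the more CCAAT boxes they carried. Promoters were the 300 bases from 250 before to 50 after the outermost start of each of 15843 protein-coding genes with a RefSeq entry, and a promoter was occupied when a peak of each replicate overlapped it. Of those with no CCAAT box, 10077 promoters, 5.13% were occupied, against 7.46% of the 3781 with 1 box, 11.5% of the 1351 with 2 boxes and 23.3% of the 634 with 3 or more. Each replicate gave the same order: 10.3, 13.5, 18.3 and 34.7% in replicate 1, and 6.59, 9.15, 13.8 and 27.0% in replicate 2. The order was also the same among promoters of 60 to 70% G or C, where the shares ran from 15 to 42.7% in replicate 1 and from 9.69 to 34.8% in replicate 2. Over the same promoters the H4K12la shares varied less with the number of boxes, a difference that was not tested. H4K12la peaks covered 9.48% of promoters with no box and 9.78% of those with 3 or more in replicate 1, and 14.7% and 18.6% in replicate 2. ENO1 peaks covered 4 promoters in each replicate over all 4 classes, which leaves no trend to read. These shares are descriptions with no test: neighbouring genes can share a promoter, and a match to CCAAT does not show a bound factor.

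**Figure D1:**
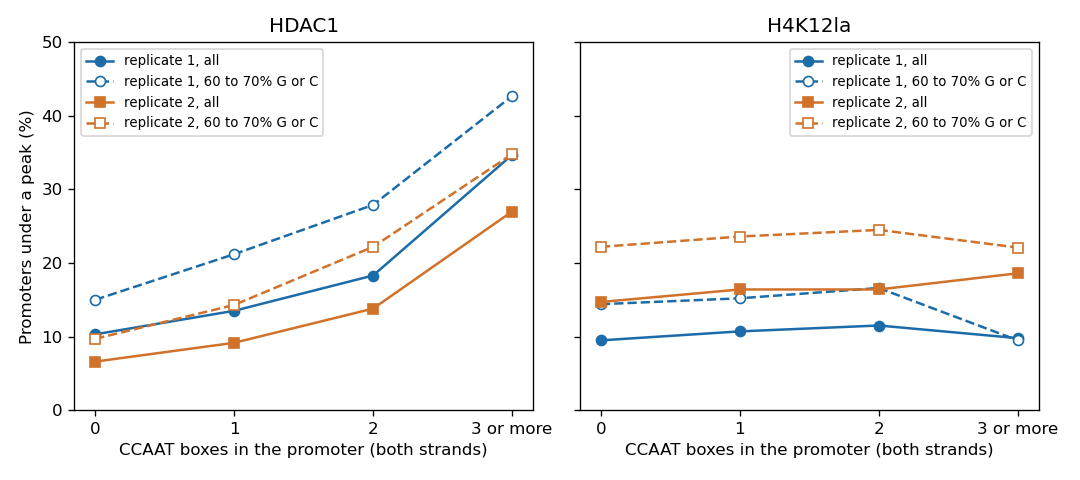
Share of promoters under a peak (y axis, percent) by the number of CCAAT boxes in the 300-base promoter, for HDAC1 (left) and H4K12la (right). Each line is 1 replicate library, solid over all promoters and dashed over promoters of 60 to 70% G or C; HDAC1 rises from 10.3 to 34.7% and from 6.59 to 27.0% over all promoters, and H4K12la stays between 9.48 and 18.6% over all promoters.

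Other elements also differed in share between occupied promoters and all promoters. The 1102 occupied promoters (6.96% of 15843) held a CCAAT box in 53.1% of cases (95% Wilson interval 50.1 to 56.0), against 36.4% of all 15843. GGGCGG was found in 76.6% against 58.3%, CCGGAAG (ETS family) in 21.6% against 14.2%, the NRF1 motif in 15.3% against 8.59%, and TTTCGCGC or TTTGGCGC (E2F) in 3.99% against 1.65%. CACGTG, the E-box, stood at 11% against 8.82%, TTCGCGG, a further E2F form that can overlap the first, at 4.99% against 3.12%, and TGACGTCA (CREB) at 3.72% against 2.56%. TATAAA, the TATA box, was rarer in occupied promoters at 3.90% against 9.75%, and so was TGANTCA (AP-1) at 3.63% against 5.70%. Within promoters of 60 to 70% G or C the CCAAT shares were 55.3% and 36.9%. There the GGGCGG shares, 78.9% and 70.6%, stood closer, the ETS shares were 23.2% and 19.5%, and the AP-1 shares 4.04% and 4.14%. The shares of the E-box (11.8% and 10.8%), TTCGCGG (4.74% and 4.01%) and CREB motif (3.51% and 3.39%) were also closer there. NRF1's motif stood at 17.9% and 12.4%, the first E2F form at 4.39% and 2.09% and TATAAA at 2.28% and 4.55%. Both a CCAAT box and a GGGCGG were present in 42.4% of occupied promoters and 20.9% of all.

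Occupied promoters were also richer in CpG. Their median ratio of observed to expected CpG was 0.851 against 0.761 over all promoters, and their median content of G or C was 64.7% against 62.7%. Occupancy did not climb steadily with G or C. It was 0.325% below 40%, 1.45% from 40 to 50%, 7.06% from 50 to 60%, 10.6% from 60 to 70%, and 6.13% at 70% and above. The highest class was thus occupied less often than the class beneath it.

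Most peaks of either list recurred in the other. At an overlap of at least 1 bp, 3297 peaks of replicate 1 (55.1%, 95% Wilson interval 53.9 to 56.4) and 3300 peaks of replicate 2 (68.7%, 67.4 to 70) met a peak of the other list. These shared peaks were stronger and wider than the 2682 and 1502 seen in 1 replicate only. Median fold was 5.25 for shared and 4.26 for single peaks in replicate 1, and 5.06 and 4.63 in replicate 2. Median -log10 q was 11.3 and 5.28 in replicate 1, and 9.47 and 5.35 in replicate 2. Median width was 582 and 432 bases in replicate 1, and 501 and 358 bases in replicate 2. The quartiles overlapped: the middle 50% of folds ran from 4.25 to 6.71 for shared and 3.72 to 4.94 for single peaks in replicate 1, and from 4.13 to 6.48 and 3.94 to 5.47 in replicate 2.

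Width separated shared from single peaks more steadily than fold did. Under 400 bases, 35.5% of replicate 1 peaks and 50.5% of replicate 2 peaks were shared. From 1000 bases up, 92.9% and 98.1% were. A wider interval meets an overlap of 1 bp more easily, and how much of this rise comes from that was not tested. By deciles of fold, the shared share in replicate 1 stayed between 37.1% and 41.0% in the 4 lowest deciles and reached 93.5% in the highest. In replicate 2 it stayed between 61.7% and 64.9% in the 6 lowest deciles and reached 86.9% in the highest. The highest decile was a different kind of peak: 62.7% of it in replicate 1 and 75.2% in replicate 2 was more than 50 kb away from protein-coding genes, and 16.8% and 5.10% within 1 kb of a gene end.

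**Figure D2:**
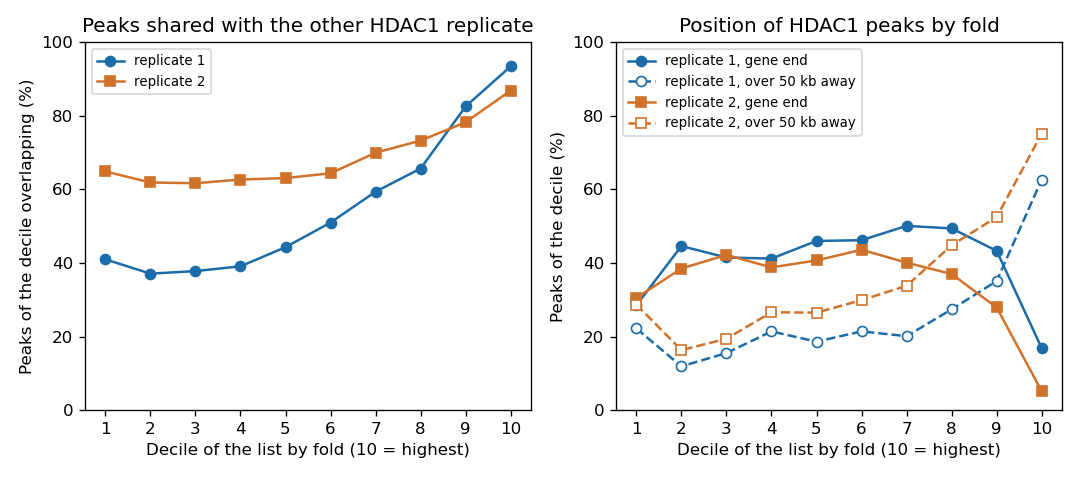
Left, percent of HDAC1 peaks in each decile of fold enrichment that overlap a peak of the other replicate; right, percent of the decile within 1 kb of a protein-coding gene end (solid) or over 50 kb from such a gene (dashed). Colours are the replicates; sharing reaches 93.5 and 86.9% in the highest decile, where gene ends fall to 16.8 and 5.10%.

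The 2 sets of single peaks lay in different places. Of those on the 24 chromosomes, 41.2% in replicate 1 and 22.1% in replicate 2 were within 1 kb of a protein-coding gene end, whereas 19.3% and 44.7% were over 50 kb from any such gene. Shared peaks stood at 40.9% and 40.6% for gene ends. Peaks of other antibodies overlapped 73.9% and 73.6% of shared HDAC1 peaks, and 46.5% and 40.4% of single ones. A peak in all 4 ENO1 and H4K12la libraries was found at 16.6% and 16.7% of shared peaks, and at 0.186% and 0.466% of single ones. The strongest single peak of replicate 1 had 15-fold enrichment at chr10:41028635-41028946, over 50 kb from a gene. The strongest of replicate 2 had 21.0-fold at chr1:236097111-236097409, 32 kb from NID1. Why these were called in 1 library was not tested.

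Shared peaks merged into 3286 regions, and these matched closely between replicates. In 3261 regions each list gave 1 peak. Summits of the 2 replicates lay a median of 63 bases apart, within 100 bases in 61.7% of regions. The 2 folds were within 1.5 times of each other in 96.5%, and replicate 1 had the higher in 52.6%. No interval of either list carried more than 1 summit line, and none did in the other 4 libraries. Several summits per region could thus be read only where 1 list had 2 peaks facing 1 peak of the other, which occurred in 25 regions, 11 with the pair in replicate 1 and 14 in replicate 2. Of these, 4 lay at gene ends: NPIPB5, with folds of 4.62 and 4.64 and a peak in all 4 other libraries, BCAN, with 3.02 and 3.53, ZBTB11, a zinc finger factor, with folds of 4.73 and 4.04 (chr3:101676325-101677525), and at the histone gene H2BC4, with 3.72 and 3.13 (chr6:26122610-26124568). The last 3 held no peak of another antibody.

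HDAC1 regions fell into a group at gene ends and a group far from genes. Of the 3089 regions on the 24 chromosomes, 1271 (41.1%, 95% Wilson interval 39.4 to 42.9) were within 1 kb of a protein-coding gene end, 504 (16.3%) lay inside a gene, 372 (12%) within 50 kb of one and 942 (30.5%) over 50 kb away. Median folds in replicates 1 and 2 were 5.15 and 4.82 at gene ends, 4.75 and 4.60 inside genes, and 6.28 and 6.29 over 50 kb away. Of the 190 regions at 10-fold or more in both replicates, 151 were over 50 kb from a gene and 3 at a gene end. The far regions were also those most often peaked by every antibody: 33.4% had a peak in all 4 other libraries, against 10.1% inside genes and 0.629% at gene ends. This measure needs a peak in both ENO1 lists, which had only 2.20% and 1.68% of their peaks at gene ends. Few gene-end regions could therefore meet it, whatever the HDAC1 signal there. At gene ends, 473 regions (37.2%) had no peak in any of the other libraries, against 847 (27.4%) of all 3089. The share was 30.4% inside genes, 27.7% within 50 kb of one and 12.5% over 50 kb away. The part of signal common to all antibodies in the far regions was not tested.

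The strongest far region had folds of 29.8 and 33.5 at chr17:25920036-25920493, 1374 kb from WSB1. Next came chr3:93470362-93470870, with 27.5 and 29.5, and chr17:22521207-22521856, with 26.5 and 28.5. All 10 of the strongest far regions had a peak in all 4 other libraries. Inside genes the strongest was in ACSL3, which activates long-chain fatty acids, at 26.4 and 30.7 (chr2:222866190-222866895), followed by LRRC27 at 16.4 and 17.6. Of the 10 strongest inside genes, 8 were peaked in all 4 other libraries, and that in TJP1, a tight-junction scaffold, at 13.7 and 14.4, was peaked in 3. The 3 gene-end regions at 10-fold or more were those of TMEM216 (23.9 and 25.7), a protein of the ciliary base, FAM86B1 (13 and 13.5) and the olfactory receptor gene OR2T1 (11.2 and 12.2), with peaks in 4, 3 and 4 of the other libraries.

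HDAC1 regions at gene ends lay mostly at the start of the gene. Summits within 1 kb of a protein-coding start made up 36.6% of replicate 1 peaks and 30.9% of replicate 2 peaks on the 24 chromosomes. Their median position from the start was -53 and -95 bases, negative being upstream, and 66.5% and 68.5% were within 250 bases. Upstream summits made up 56.4% of these in replicate 1 and 66.1% in replicate 2. Of the 1271 gene-end regions, 1059 (83.3%) were within 1 kb of a protein-coding start. Among genes over 10 kb long with 1 known start, 726 had a region at the 5′ end only, 31 at the 3′ end only and 6 at both.

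**Figure D3:**
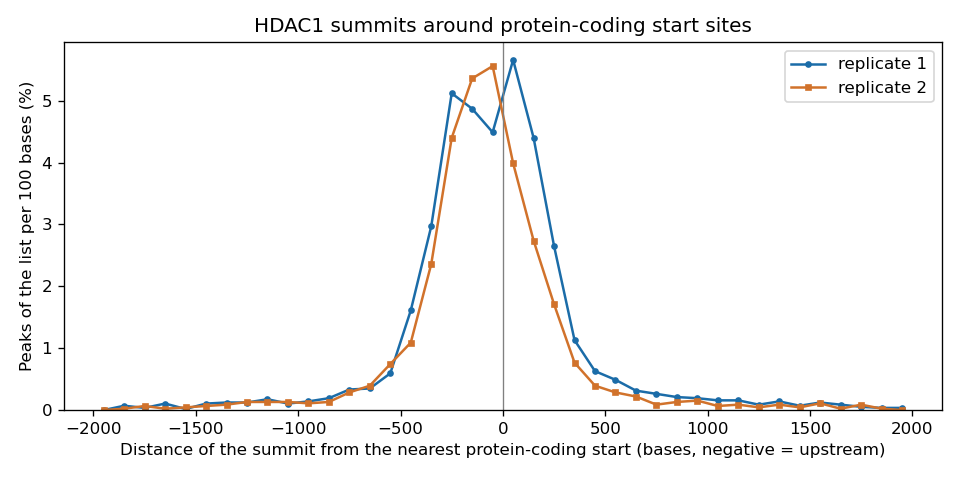
Distance of HDAC1 peak summits from the nearest protein-coding start (x axis, bases, negative upstream) against the percent of the list's peaks in each bin of 100 bases; the lines are the 2 replicates. Both pile up within 500 bases of the start, with medians at -53 and -95 bases.

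The 3′ cases with the highest lower fold were BRWD1 (9.19 and 6.45), a bromodomain protein, and SDR42E2 (6.75 and 6.04). At BRWD1 the same folds were recorded for PSMG1, a proteasome assembly chaperone, so the region is shared by windows of both genes.

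A share of HDAC1 promoters served 2 genes that are read in opposite directions. Of the 1410 genes occupied within 1 kb of a start (8.90% of 15843), 37.0% had a start of another gene on the other strand within 1 kb upstream, against 16.2% of the genes not so occupied. The partner was protein-coding for 24.5% and 8.75%. In all, 164 divergent protein-coding pairs were occupied, with starts a median of 256 bases apart. CEP290, a protein of the ciliary transition zone, and TMTC3 start 219 bases apart under 1 region with folds of 8.08 and 8.28. LNP1 and TOMM70, an import receptor of mitochondria, share 9.91 and 7.99 over 450 bases. ARPC5, a subunit of the actin-nucleating complex, and RGL1 share 7.87 and 8.92. HSPD1 and HSPE1, the mitochondrial chaperonin and its cofactor, start 105 bases apart and share 7.73 and 6.63. A pair under 1 region counts as 2 occupied genes: 912 regions were at the ends of 1 gene, 343 of 2 genes and 16 of 3.

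HDAC1 occupied 1626 of 19866 protein-coding genes (8.18%) by a peak within 1 kb of an end in both replicates. Replicate 1 alone had a peak at 2949 genes (14.8%) and replicate 2 at 2006 (10.1%), so 1323 genes were called in replicate 1 only and 380 in replicate 2 only. Of the 1626 occupied genes, 566 had no gene-end peak in the other libraries, and the matching share over all genes was not computed. Another 6 had one in all 4, a count limited by the few ENO1 peaks at gene ends. The strongest after the 3 already named were NT5C3A, LRIF1 (9.29 and 9.48), a protein of heterochromatin, CCDC200 (9.25 and 9.56), peaked in all 4 other libraries, and RAP2A (9 and 9.98), a small GTPase. RALY, an RNA-binding protein, had 9.54 and 8.26. ZNF131, a zinc finger factor, had 8.44 and 8.27, and ZBTB20, a transcriptional repressor, 8.17 and 8.07. The highest folds at genes called in 1 replicate were 8.59 at SETD9 in replicate 1 and 13.8 at SPATC1L in replicate 2.

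Among the list members named in what follows, RBBP4, ING1, MTA2, MIER1, SETDB2, BAP1, PHF10, POLR2I, TBP, CNOT9, SF3B6, HNRNPA2B1, CCT3, SREBF2 and APOM had a region that was also at the end of another protein-coding gene, and it cannot be given to either alone. At ARID4B the peak of replicate 1 (8.43) was also at an end of GGPS1, which had no end peak in replicate 2.

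Genes of HDAC1's own complexes were among those occupied, and the lists are small, with no test between them. Of 16 Sin3 complex genes, 7 (43.8%) were occupied, against 8.18% of all genes. ARID4B had folds of 8.43 and 5.94, BRMS1L 5.71 and 5.88, PHF12 5.36 and 5.59, ARID4A 5.03 and 5.03 and ING1 4.58 and 5.42. RBBP4, a histone chaperone found in both Sin3 and NuRD, had 5.01 and 4.08, and SAP130 4.19 and 3.74. PHF12 and SAP130 had no peak of another antibody at their ends. The scaffold SIN3A had a gene-end peak in replicate 1 alone (3.85), although both replicates had a peak at a start inside the gene. Of 12 NuRD genes 3 were occupied: GATAD2B (5.91 and 5.97), RBBP4 and MTA2 (3.13 and 4.38). Of 17 CoREST, MIER and MiDAC genes 1 was, MIER1 (7.46 and 6.54). HDAC1 itself, HDAC2, HDAC3, MTA1 and RCOR1 had no HDAC1 peak at an end in either replicate. Among deacetylases and sirtuins, 3 of 18 were occupied: HDAC6 (7.68 and 4.99), SIRT5 (6.55 and 4.46) and HDAC4 (4.27 and 5.59).

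Other chromatin genes were read by group, again with no test between groups. Polycomb complexes had 7 of 33 (21.2%), among them ASXL2 (5.25 and 5.02) and the deubiquitinase BAP1 (7.24 and 5.01). Bromodomain readers had 5 of 25 and lysine methyltransferases 6 of 31, with SETDB2 at 5.90 and 5.35 and KMT2A at 4.10 and 4.76. SWI/SNF remodellers had 1 of 27, PHF10 (4.60 and 3.92), and RNA polymerase II with its general factors 2 of 44, POLR2I and TBP. In replicate 1 alone SWI/SNF stood at 14.8%, the same as all genes, and in replicate 2 at 7.41% against 10.1%. RNA polymerase II with its general factors stood at 11.4% and 6.82%, below all genes in both. Both lists hold few occupied genes, and these 2 counts are not read as low.

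The lists for mRNA decay, splicing, charging tRNA, nuclear transport and folding proteins were occupied at 24.5 to 33.3%. DEAD and DEAH box helicases (8 of 54, 14.8%), translation initiation factors (7 of 40, 17.5%) and cytosolic ribosomal proteins (11 of 87, 12.6%) stood lower. mRNA decay and deadenylation had 15 of 45 (33.3%), including the nonsense-mediated decay factors UPF2 (8.58 and 6.89) and UPF3A (5.90 and 5.91), the deadenylase subunit CNOT9 (6.71 and 5.07) and the decapping enzyme DCP2 (4.97 and 4.52). Splicing factors had 18 of 60 (30%), led by SF3B6 (7.46 and 8.13), HNRNPD (8.01 and 7.21) and HNRNPA2B1 (5.79 and 6.19). Chaperones and the unfolded protein response had 17 of 51 (33.3%). There PDIA4, which forms disulfide bonds, had 7.18 and 8.96, CCT3, a subunit of the cytosolic chaperonin, 7.65 and 6.88, and HSP90B1 5.48 and 8.08. The master chaperone of the endoplasmic reticulum, HSPA5, had 4.34 and 5.05. Aminoacyl-tRNA synthetases had 10 of 38 (26.3%), of which HARS1 and HARS2 share 1 region. The nuclear pore and transport list had 13 of 53 (24.5%), with the import receptor KPNB1 at 6.72 and 8.64 and the export receptor XPO1 at 6 and 6.69.

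**Figure D4:**
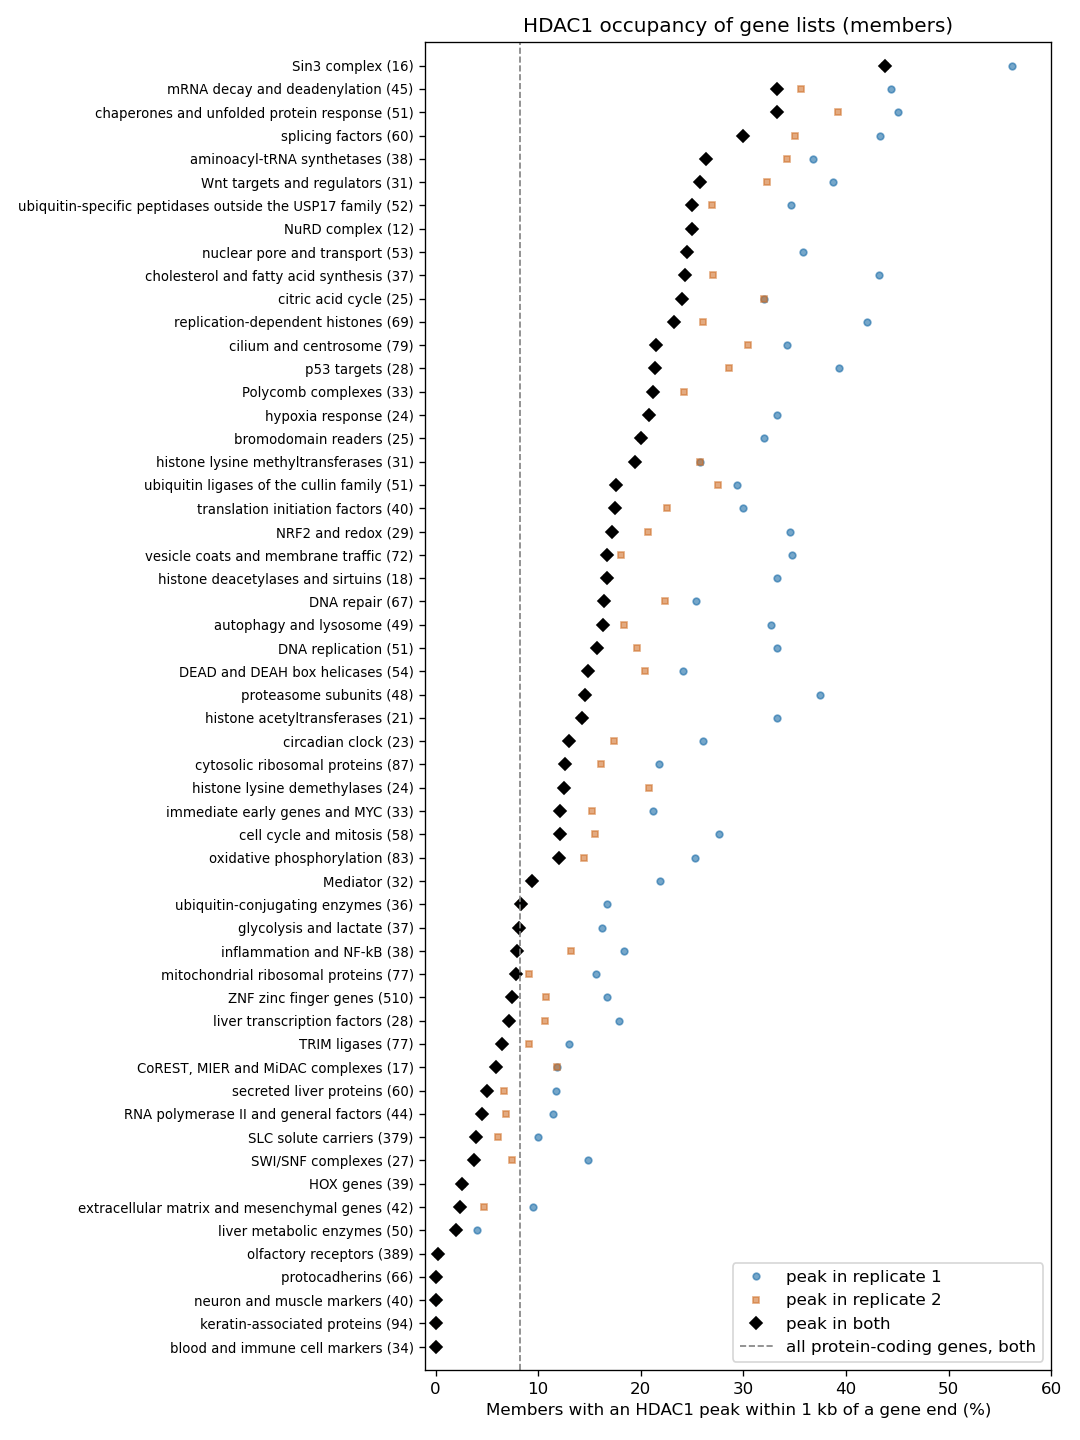
Percent of the members of each of the 56 gene lists (members in brackets) with an HDAC1 peak within 1 kb of a gene end in replicate 1 (circles), replicate 2 (squares, hidden where equal to both) and both (diamonds). The dashed line is the 8.18% of all protein-coding genes; Sin3 genes lead at 43.8% and 4 lists stand at 0.

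Metabolic lists divided. Cholesterol and fatty acid synthesis had 9 of 37 (24.3%), with LSS, which closes the sterol ring, at 5.79 and 7.83 and the regulator SREBF2 at 5.40 and 5.49. The citric acid cycle had 6 of 25 (24%), with MDH1 (8.19 and 6.45), OGDH (5.84 and 7.22) and CS (5.27 and 4.11). Glycolysis and lactate had 3 of 37 (8.11%), a share near that of all genes: GPI (7.45 and 5.71), ENO1 (4.51 and 4.90) and ALDOA (3.69 and 2.79). Mitochondrial ribosomal proteins, at 6 of 77 (7.79%), were also near it. ENO1, the gene of the second target, had no peak of the ENO1 or H4K12la antibodies at its ends.

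Wnt, p53, deubiquitinase and cilium lists lay between 21.4 and 25.8%. Of 31 Wnt genes 8 (25.8%) were occupied, with the kinase GSK3B at 8.17 and 4.98, the inhibitor DKK1 at 4.49 and 4.91 and the feedback gene AXIN2 at 2.77 and 2.81. Of 28 p53 targets 6 (21.4%) were, with TP53I3 (8.40 and 8.97), RRM2B (7.24 and 7.15), a subunit of ribonucleotide reductase, and MDM2 (3.81 and 4.09), the ligase that degrades p53. Ubiquitin-specific peptidases had 13 of 52 (25%), with USP22 at 6.43 and 7.78, and cilium and centrosome genes 17 of 79 (21.5%), with CEP290 among them. Cell cycle and mitosis genes had 7 of 58 (12.1%), with CDK2 at 7.23 and 6.28 through a region that is also at the start of RAB5B. Immediate early genes and MYC had 4 of 33, and MYC itself had 4.54 and 3.27.

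Replication-dependent histone genes had 16 of 69 (23.2%) occupied by low folds, through only 10 regions, so the 16 are not separate cases. The medians were 3.96 and 3.63, against 5.19 and 4.83 over all occupied genes. H2AC11 and H2BC11 shared 1 region at 6.72 and 5.59, and the other occupied histone genes lay between 2.93 and 4.65 in replicate 1 and between 3 and 3.99 in replicate 2. Histone genes are short, lie in clusters and have near copies, so windows of neighbours overlap and reads of copies can be split.

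Few hepatocyte genes were occupied, and these lists are too small to set apart from the 8.18% of all genes. Liver metabolic enzymes had 1 of 50 (2.00%), HPD of tyrosine breakdown (4.08 and 4.36, in a region shared with the proteasome gene PSMD9), and secreted liver proteins 3 of 60 (5%), APOM, F5 and SERPINA6. Liver transcription factors had 2 of 28 (7.14%), near the share of all genes, NR0B2 (4.18 and 3.95) and CEBPB (3.65 and 3.17). Markers of blood and immune cells (34), of neurons and muscle (40), keratin-associated proteins (94) and protocadherins (66) had none in both replicates or in either. The solute carriers had 15 of 379 (3.96%) and extracellular matrix genes 1 of 42. Peak lists hold no expression, so the labelled cell type could not be checked against its markers, and the counts of a list are no measure of its activity. Of the 56 lists, 24 were at 2 or more times the share of all genes and 10 under 0.5 times it.

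Few genes held more than 1 HDAC1 region. From 1 kb before to 1 kb after the gene, 100 of 19866 protein-coding genes (0.503%) had 2 or more, of which 89 had 2 and 10 had 3. These genes were long, with a median of 71.5 kb against 33.1 kb for genes with 1 region. TTC34 alone had 11 regions, at folds of 2.00 to 5.23 and 2.19 to 6.07, and 9 of them were peaked in all 4 other libraries. SOD2, the superoxide dismutase of mitochondria, had 3 regions, whose folds were 5.55 to 6.81 in replicate 1 and 3.69 to 5.02 in replicate 2. None of them was peaked in all 4 others. The 1 at its own end was shared with ACAT2, and another was at the end of a different gene within its span. RPTOR, the scaffold of the nutrient-sensing kinase complex mTORC1, had 3, at 3.15 to 8.06 and 3.64 to 7.92. GPHN, the scaffold of inhibitory synapses, had 3, at 6.01 to 7.11 and 5.88 to 6.41, of which 1 was at its own end and the others at the ends of PALS1 and of EIF2S1 and ATP6V1D within its span. AGFG2 had 3 with no other antibody at any.

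Separate regions at both ends were found at 15 genes (0.0755% of all). The strongest was TP53I3 (chr2:24077433-24084834), at 8.40 and 8.97. TBC1D10B followed at 6.68 and 7.24, RHOA, a small GTPase of the cytoskeleton, at 5.49 and 5.35 and GPR108 at 4.97 and 5.44. SIRT5, which removes acyl groups in mitochondria, had 6.55 and 4.46, and the chemokine gene CCL20 5 and 4.1. These folds are the highest at either end in each replicate, so the pair of a gene need not come from the same end. The other TP53I3 region (7.46 and 8.13) had the same folds as the neighbouring starts of SF3B6 and FAM228B. The weaker RHOA region (4.45 and 4.39) had those of the neighbouring gene GPX1. Such regions cannot be given to a single gene.

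Regions were unevenly spread over the chromosomes. Per Mb of annotated span, chromosome 19 had 3.74 regions, chromosome 20 had 2.32 and chromosome 17 had 2.16, whereas chromosome 3 had 0.484 and X had 0.199. Counted over genes, chromosome 14 led with 14.4% of its protein-coding genes occupied, then chromosome 2 with 12.9%, chromosome 20 with 11.2%, chromosome 6 with 10.7% and chromosome 10 with 10.6%. The lowest were chromosome 22 with 4.56%, X with 2.00% and Y with 0. Chromosomes 2 and 14 led both lists: chromosomes 2, 14 and 10 were the top 3 in replicate 1 at 22.7, 20.2 and 20.1%, and chromosomes 14, 2 and 20 in replicate 2 at 15.9, 15.6 and 14.2%. In the H4K12la libraries, 10.5% of all protein-coding genes had a peak in both replicates, and chromosomes 2 (22.9%), 10 (20.3%) and 20 (16.9%) were likewise high. On chromosome 19 the targets stood apart: 8.94% of its genes were occupied by HDAC1 and 1.06% held H4K12la. Chromosome copy number, which is altered in this line, was not analysed here.

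**Figure D5:**
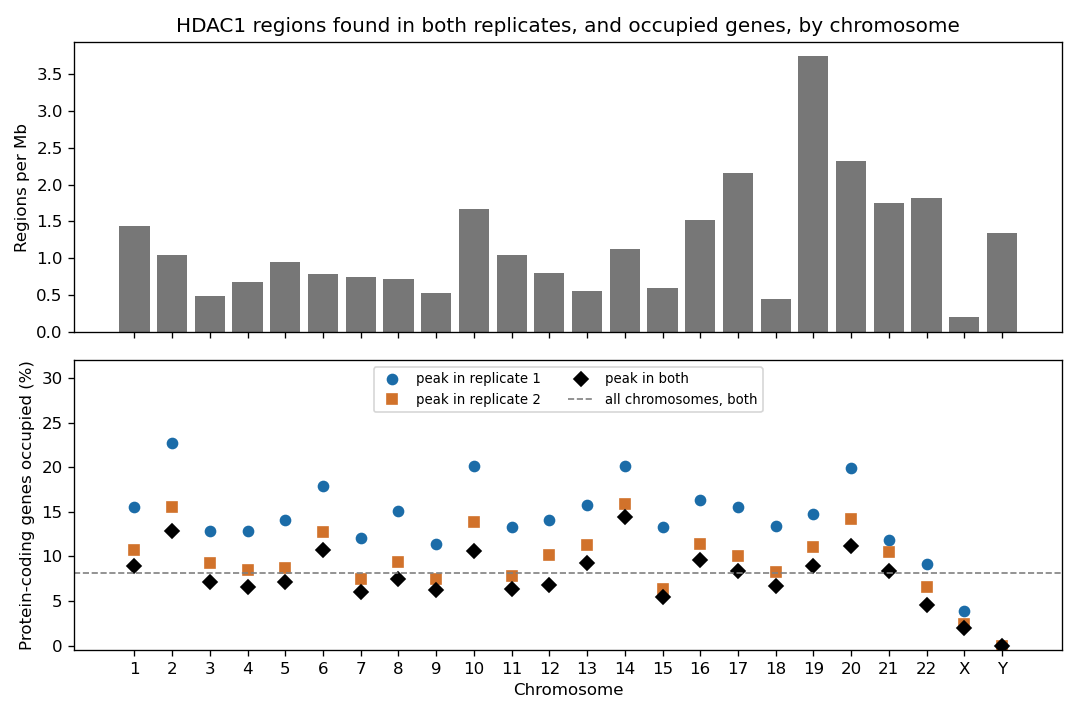
Top, HDAC1 regions found in both replicates per Mb of annotated chromosome (bars); bottom, percent of each chromosome's protein-coding genes with an HDAC1 peak within 1 kb of an end in replicate 1 (circles), replicate 2 (squares) and both (diamonds). The dashed line is 8.18%; chromosome 19 has 3.74 regions per Mb, and chromosome 14 the highest occupied share at 14.4%.

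Chromosome Y had 77 regions, 76 of them over 50 kb from a protein-coding gene, and no occupied gene. A further 197 regions lay on 66 unplaced or mitochondrial sequences, and 58.9% of them had a peak in all 4 other libraries. The mitochondrial genome held 5 regions with folds up to 2.71 and 2.66, including the widest interval of both lists at 4165 bases.

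Genes transcribed by RNA polymerase III were among the noncoding genes with HDAC1 peaks. Of 424 tRNA genes, 44 (10.4%) had a peak within 1 kb of an end in both replicates, through 29 regions of which 14 were also at a protein-coding gene end. The tRNA share is near the 8.18% of protein-coding genes, as is the snRNA share given below, so neither is read as high. The strongest was TRQ-TTG1-1, a glutamine tRNA gene (chr17:49192528-49192599), at 5.64 and 4.76, and none of the 44 was peaked in all 4 other libraries. RN7SK, the RNA that holds back the elongation factor P-TEFb, had 7.31 and 5.87. Of 29 rRNA genes 6 (20.7%) were occupied. They included RNA5S6 (3.94 and 4.07), from a group of 5S genes close together on chromosome 1. They also included RNA45SN2 (3.61 and 3.67), which is not a gene of RNA polymerase III. Of 149 snRNA genes 12 (8.05%) were occupied. Of 18010 lncRNA genes 477 (2.65%) were, and 309 of their 457 regions were also at a protein-coding gene end. miRNA genes had 30 of 1913 (1.57%) and snoRNA genes 7 of 1193 (0.587%), most of them under regions of a protein-coding gene.

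Some groups of near copies stood out among pseudogenes and are named after their values were seen. The 5 strongest of the 47 occupied transcribed pseudogenes (3.79% of 1239) all belonged to the FAM86 family: FAM86EP (9.74 and 9.42), FAM86C2P (9.25 and 9.39), FAM86HP (11.1 and 9.09), FAM86DP (9.59 and 8.80) and FAM86C1P (8.48 and 8.5), beside the protein-coding FAM86B1. Among 100 occupied pseudogenes (0.649% of 15416), 4 of the 5 strongest carry names of mitochondrial genes, among them MTCYBP13 (26.5 and 28.5), MTCO1P40 (14.6 and 17.4) and MTRNR2L6 (10.9 and 13.1). The region of MTCYBP13 is the third far region named above. Reads of such copies can map to several places, and their part in these folds was not tested. The strongest lncRNA genes, LINC01986 (chr3:11751-24501) at 19.3 and 20.8 and LINC02564 (chr18:11560-15930) at 19.1 and 19.7, lie beside chromosome ends.

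Gene-end share and peak width were also set against those of all 4 other libraries, in a test that 2 against 4 libraries cannot bring past the threshold. The gene-end share was 37.8 ± 4.48% (SD, n = 2) for HDAC1, against 1.68 to 43.8% over the 4 other libraries (two-sided exact permutation test, p = 0.667, adjusted 0.667 over 2 comparisons). The ENO1 lists gave 2.20 and 1.68%, and the H4K12la lists 41.0 and 43.8%, so HDAC1, at 41.0 and 34.7%, was far above both ENO1 lists and at or below the H4K12la lists. Median width was 472 ± 43.8 bases (SD, n = 2) against 415 to 545 bases (exact permutation p = 0.533, adjusted 0.667). The smallest p that 2 libraries against 4 can give is 0.133, so neither comparison could pass 0.05.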

How the data were processed

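CUT&Tag of HDAC1, ENO1 and H4K12la was made in HepG2, 2 libraries a target; titles gave the groups and replicate numbers. The submitters' processing notes name hg38, Bowtie2, MACS2, deepTools and FastQC. Not given in the sources used here were settings, versions and the use of a control in calling. The deposited files are narrow peak lists, 1 per library. In the deposited lists the fold enrichment is a ratio over the peak caller's background, whose source is not known here, the -log10 p and -log10 q values are the peak caller's, and the deposited score is 10 times the -log10 q, cut to a whole number. The lists end near a q value of 0.01. Multiply mapping reads could pile up in repeats, and their treatment by the authors was likewise not given.

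Peaks overlapped at 1 bp or more; regions are merged peaks that hold a peak of each replicate. Genes, starts and promoters came from RefSeq GRCh38.p14: 19866 protein-coding genes on the 24 chromosomes, 15843 with a promoter. Distances use windows of 1 kb around annotated gene ends. Motifs were searched on both strands. Shares are descriptions with Wilson 95% intervals that cover counting error only; libraries were compared by two-sided exact permutation with Benjamini-Hochberg adjustment. The test planned for intervals with several summits could not be made, since no library has such an interval. Genes were named by the lower of both replicates' folds: the top 30, the strongest in each list, the strongest regions inside and over 50 kb from genes, those with most regions and with both ends, and the strongest in 1 replicate alone; some were left unnamed. A few further genes were named after their values were seen. Members, lists and motifs were chosen with earlier results of these data known. The alternatives were other overlaps, windows and q thresholds and leaving out a replicate. The overlap and window steps were tested on simulated lists and recovered what was planted. Python 3.11.15, pandas 2.3.3, numpy 2.4.6, scipy 1.17.1 and matplotlib 3.10.9 were used.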

Additional observations from a re-analysis of the deposited data

How the results depend on the processing

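Sharing between replicates moved with its definition. In replicates 1 and 2 it was 48.5% and 60.3% at an overlap of at least 50% of both peaks, 51.4% and 65.6% with the summit inside the other's peak, 59.4% and 71.8% at a -log10 q of 5 or more, and 63.7% and 63.8% for equal numbers of strongest peaks. The gene-end share of regions was 38.9% with a 500 bp window, 46.9% with 5 kb, 47.6% without regions peaked in all 4 other libraries (chosen after seeing the data), and 34.7% to 41.0% for a single replicate. Occupied genes numbered 2006 and 2949 with 1 replicate left out, and 1253 at a -log10 q of 5 or more. Genes with more than 1 region numbered 65 at that threshold and 188 to 355 with 1 replicate left out. Lists at 2 or more times the share of all genes numbered 23 to 25 under every setting run, and 13 lists were among them each time; among others, the NuRD and Polycomb lists dropped out without replicate 2, and the histone list at a -log10 q of 5 or more. The motif alternatives were also chosen after seeing the data. Among promoters of 60 to 70% G or C, the occupied share minus the share of all was 8.30 points for GGGCGG, 3.70 for CCGGAAG, -2.27 for TATAAA and -0.10 for TGANTCA; the CCAAT difference was 12.2 to 15 points with 1 replicate left out, against 16.7 with both. Counts, shares and widths cannot change sign. The differences in fold, in motif share and between targets could, and none did under the alternatives run. Sharing and its folds need both lists, so they have no value with 1 replicate left out.

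No paired analysis was possible because the results come from single peak lists and from no fitted model, and the labels do not say that equal replicate numbers share a culture. Depth is unknown, so a missing peak sets no upper limit and list sizes cannot be compared.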
